A study of Mus musculus and Homo sapiens with 30 samples.

Results

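The genes of de novo lipogenesis, the making of fatty acids from acetyl units, were described across 3 mammary cell lines and 3 media. Membership was by name: 10 of the 56980 gene identifiers in the mouse table (Srebf1, Thrsp, Acly, Acss2, Acaca, Acacb, Fasn, Elovl6, Scd1 and Scd2) and 6 of the 61552 in the human table (SREBF1, ACLY, ACACA, FASN, ELOVL6 and SCD, found by Ensembl identifier). The rule used names and no measured value, but the members were chosen with earlier results of these data known. Counts of members beside shares of all genes are therefore descriptions.

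RNA was sequenced from 30 libraries. SkBr3, a human breast cancer line, had 4 libraries per medium, and E0771, a mouse mammary cancer line, and NMuMG, a mouse mammary gland epithelial line that the labels also list as breast cancer, had 3 libraries per medium. Cells grew for 36 h and then spent 16 h in control DMEM or in a mixture of 50% standard medium and 50% secretome, the medium conditioned by inguinal adipocytes, from a lean or an obese source. All lines received DMEM with 10% FBS. The labels give insulin (10 mcg/ml) and glucose (4.5 g/L) for the NMuMG medium and do not state either for the other lines, so line and medium cannot be told apart where the lines are compared. The species and number of the fat donors were not given in the labels, and nothing said whether replicates were separate cultures, so p-values measure the spread between these libraries only. Lean and obese secretome were matched for the share of conditioned medium, and the control contained none.

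Fatty acid synthesis starts from acetyl-CoA. ATP citrate lyase (Acly) makes it from citrate and acetyl-CoA synthetase 2 (Acss2) from acetate. Acetyl-CoA carboxylase, encoded by Acaca in the cytosolic form and by Acacb in a form tied to mitochondria, turns it into malonyl-CoA, and fatty acid synthase (Fasn) builds palmitate. Elovl6 lengthens palmitate and the stearoyl-CoA desaturases (Scd1 and Scd2 in the mouse, SCD in human) put in the first double bond. Srebf1 encodes SREBP-1, a membrane-held transcription factor that is cleaved and then activates most of these genes, and insulin and the nuclear receptor LXR are known to raise its mRNA. Thrsp encodes Spot 14, a small protein of lipogenic tissues such as fat, liver and lactating mammary gland. Polyunsaturated fatty acids are known to lower the expression of many of these genes in liver.

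The windows upstream of transcription starts are shown for the transcription factor (Srebf1), for the member with the largest fall in E0771 (Thrsp), for the synthase (Fasn), and for a member that moved the other way (Acly). They are RefSeq sequences on GRCm38.p6, minus strand for all 4, matched by symbol. The windows are chr11:60210472-60210721 for Srebf1 (1 of its 3 windows), chr7:97417551-97417800 for Thrsp, chr11:120824548-120824797 for Fasn and chr11:100528001-100528250 for Acly. Each holds the 250 bases before the start. Capitals mark CCAAT or its reverse complement ATTGG, the letters that the factor NF-Y reads, and GGGCGG or its reverse complement CCGCCC, the letters that Sp1 reads.
Srebf1: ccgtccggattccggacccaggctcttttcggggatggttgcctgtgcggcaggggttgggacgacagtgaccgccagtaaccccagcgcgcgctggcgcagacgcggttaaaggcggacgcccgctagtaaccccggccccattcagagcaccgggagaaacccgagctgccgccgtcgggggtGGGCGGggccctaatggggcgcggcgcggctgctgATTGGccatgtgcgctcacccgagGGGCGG
Thrsp: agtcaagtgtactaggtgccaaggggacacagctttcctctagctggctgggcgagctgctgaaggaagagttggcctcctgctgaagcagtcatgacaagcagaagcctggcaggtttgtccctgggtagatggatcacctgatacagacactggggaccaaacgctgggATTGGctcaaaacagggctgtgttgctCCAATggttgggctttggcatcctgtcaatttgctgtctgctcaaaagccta
Fasn: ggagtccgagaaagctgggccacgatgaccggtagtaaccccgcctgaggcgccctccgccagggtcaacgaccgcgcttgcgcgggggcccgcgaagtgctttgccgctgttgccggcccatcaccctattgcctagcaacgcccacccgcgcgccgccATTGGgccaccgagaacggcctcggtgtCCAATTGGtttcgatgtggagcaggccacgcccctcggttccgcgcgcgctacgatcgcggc
Acly: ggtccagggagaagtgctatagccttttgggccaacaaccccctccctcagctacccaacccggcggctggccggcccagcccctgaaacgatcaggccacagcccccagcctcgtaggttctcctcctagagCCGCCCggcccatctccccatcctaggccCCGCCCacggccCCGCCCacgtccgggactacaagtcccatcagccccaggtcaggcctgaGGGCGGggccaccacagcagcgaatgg
A window was found for 8 of the 10 mouse members, and not for Scd1 and Scd2. Both strands were searched. CCAAT stood in at least 1 window of 5 members (Acacb, Acss2, Fasn, Srebf1 and Thrsp), against 37.5% of all 27025 genes and 33.8% of all 32851 windows of that length. The Thrsp window holds 2 matches and the Fasn window 3, of which 2 overlap on opposite strands. GGGCGG stood in windows of 3 members (Acly, Acss2 and Srebf1), against 35.4% of all genes and 32.7% of all windows, and 4 matches stand in the Acly window. The sterol response letters TCACNCCAC, found for 1.22% of all genes (1.05% of windows), and the E-box CACGTG, found for 6.86% (6.02% of windows), stood in no window of these 8 members. A match is a stretch of letters and not a measured binding site. Its absence covers this window and these exact letters only, and variants of the letters were not searched.

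Total counts lay between 18479433 and 31094119 per library, and within a line the TMM scaling factors lay between 0.987 and 1.02. Expression is given as CPM, counts scaled to a common library total within each line. Log2 fold changes, their standard errors and adjusted p-values are from edgeR's quasi-likelihood test with Benjamini-Hochberg adjustment over all genes tested, and calls were made below 0.05. The labelled cell types were checked on markers. In NMuMG 8 of 10 mammary epithelial markers were above 3 counts, with a summed level of 6929 to 8208 CPM, while Cldn7 was at 0 in every library. In E0771 control libraries 3 of 10 were above 3 counts, with Krt8 at 254.5 CPM and Krt18, Krt19, Cldn3, Cldn4 and Cldn7 at 0. Adipocyte markers in E0771 summed to 8.69 to 12.32 CPM over the 3 media, and Lep, Pparg and Cebpa were at 0 in each library. In NMuMG adipocyte markers summed to 44.41 to 50.94 CPM. In lean against obese secretome, 1 of 2 tested was called higher in E0771 and 2 of 4 in NMuMG, with 0 lower in both. The shares of all genes called higher were 25.8% in E0771 and 17.6% in NMuMG, and lower 26.9% and 17.4%. SkBr3 markers were not examined.

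In E0771 lean secretome gave lower Srebf1, Thrsp, Scd1 and Scd2 than obese secretome, a smaller fall of Elovl6, and higher Acly and Acacb. Fasn, Acaca and Acss2 did not pass the test. Of the 10 members, 2 were called higher and 5 lower, where 25.8% of all 13813 genes tested were called higher and 26.9% lower. These are bulk libraries, in which fewer cells with a transcript and less of it per cell cannot be told apart. In 7 of 10 members the lean and obese libraries did not overlap, against 60.1% of all genes. The median log2 fold change of the members was -0.11, and that of all genes tested was 0.00. The share of members called lower, 5 of 10, is above the 26.9% of all genes. With 10 genes it is a description, and no set test was run.

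Against control medium, lean secretome in E0771 gave 2 members called higher (Acly and Acacb) and 7 lower of 10, all others except Acss2, beside 27.3% and 29% of all genes. Libraries did not overlap in 9 of 10 members, beside 61.4%. The member median was -0.30 and that of all genes -0.01. Obese secretome against control gave 0 members higher and 2 lower (Srebf1 and Acaca) with edgeR, beside 1.21% and 1.4% of all genes, and the 5 members with no overlap stand beside 21.2% of all genes. At an unadjusted p under 0.05 that comparison held 1 higher and 6 lower, and DESeq2 called 1 higher and 3 lower. The summed level of the 10 members was 3186 CPM ± 98.6 (SD, n = 3) in control, 2079 ± 14.2 in lean and 2661 ± 268 in obese secretome. The lean libraries held the lowest summed level, and the obese libraries lay between lean and control. The sum is not scaled for length, and Scd2 and Fasn weigh most in it (means of 1203 and 861.8 CPM in control).

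**Figure D1:**
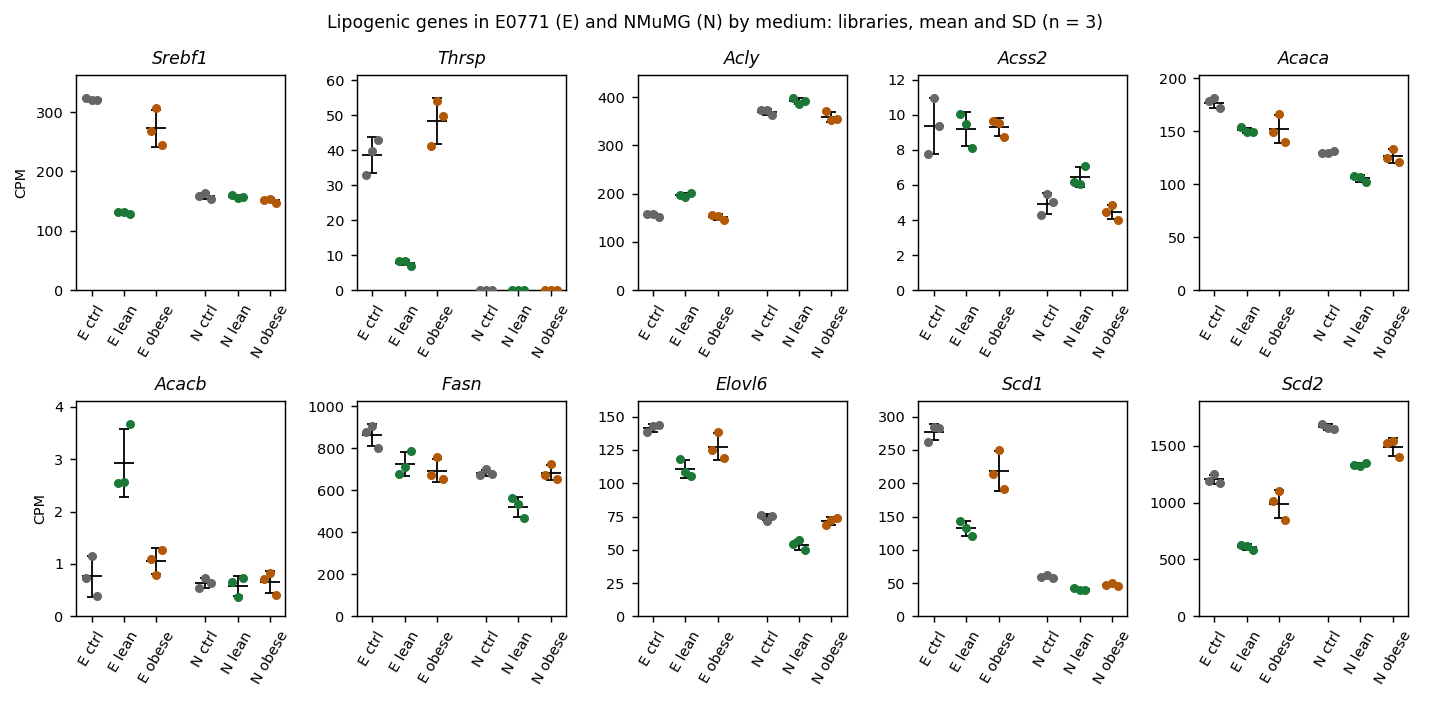
Expression of the 10 mouse members in each library of E0771 and NMuMG, in CPM on axes from 0, with control, lean and obese media side by side. Points are libraries and bars are the mean and SD (n = 3). Among the E0771 libraries, the lean ones lie lowest for Srebf1 (129 to 132 CPM) and Thrsp (6.99 to 8.25 CPM).

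Srebf1 (ENSMUSG00000020538) stood in E0771 at 324.4, 319.8 and 320.4 CPM in control, at 131.7, 131.2 and 129.1 CPM in lean and at 268, 306.2 and 244 CPM in obese secretome. The lean libraries lay close together and far below every other E0771 library, and the obese libraries lay below every control library. On the log2 scale lean secretome differed from obese by -1.06 ± 0.0599 (SE, adjusted p = 6.917e-10) and lean against control -1.30 (adjusted p = 4.77e-11). The obese against control value was -0.24 (adjusted p = 0.04231). That last call was lost when any 1 of the 9 libraries other than obese replicate 2 was left out, with adjusted p between 0.0796 and 0.24, and with the 2 groups fitted alone (0.1936). The counts are per gene, so the SREBP-1a and SREBP-1c transcripts of Srebf1 were not separated.

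NMuMG gave another picture for the same gene. Srebf1 there was at 159.1, 164.2 and 153.6 CPM in control, 160.1, 155.7 and 157.2 CPM in lean and 152.4, 154.2 and 147.7 CPM in obese secretome. The lean libraries lay just above the obese ones and among the control ones. Lean and obese secretome differed by 0.06, with a 95% interval from -0.01 to 0.13 (adjusted p = 0.2153), and that of lean over control was -0.01, with an interval from -0.08 to 0.06. The difference between the lines in the lean against obese effect, E0771 minus NMuMG, was -1.10 ± 0.0679 (SE, adjusted p = 2.73e-14).

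Thrsp (ENSMUSG00000035686) was counted almost only in E0771. It stood at 32.85, 39.89 and 42.95 CPM in control, at 8.247, 8.217 and 6.987 CPM in lean and at 41.31, 54.23 and 49.95 CPM in obese secretome. Lean libraries lay far below the others, while obese and control libraries overlapped. The change in lean against obese secretome was -2.64 ± 0.134 (SE, adjusted p = 1.874e-08), the 43rd largest absolute change among 13813 genes, and lean against control gave -2.30 (adjusted p = 5.217e-08). Obese against control gave 0.33, with a 95% interval from 0.09 to 0.58 (adjusted p = 0.1769). Thrsp passed in that comparison without obese replicate 1 (adjusted p = 0.01542), with the replicate block (0.02416), with DESeq2 (0.02944) and with no filter on low counts (3.513e-05). In NMuMG no read of Thrsp was counted in control or obese libraries and 2 reads in 1 lean library, so it was not tested there. Against a floor of 3 counts per library, E0771 was at least 337-fold higher in control medium, at least 67.1-fold higher in lean and at least 382-fold higher in obese secretome.

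Mid1ip1, the paralog of Thrsp, whose protein helps acetyl-CoA carboxylase to polymerise, had more reads in NMuMG than in E0771. It stood at 4.24 to 4.50 CPM in E0771 control, 1.85 to 2.46 in lean and 4.131 to 4.601 in obese secretome. In NMuMG it stood at 141 to 147 CPM in control, 113 to 120 in lean and 121 to 132 in obese secretome. It fell with lean against obese secretome in both lines, by 1.08 on the log2 scale in E0771 (adjusted p = 3.555e-06) and by 0.12 in NMuMG (adjusted p = 0.01541). The 2 changes differed by -0.94 (E0771 minus NMuMG, adjusted p = 1.569e-07).

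The enzymes that make acetyl-CoA did not fall with Srebf1. Acly (ENSMUSG00000020917) stood in E0771 at 157.2, 157.6 and 150.9 CPM in control, 197.7, 193.5 and 201.5 in lean and 155.1, 154.6 and 145.5 in obese secretome. Every lean library was above every other. Compared with obese secretome, lean gave 0.38 ± 0.0399 (SE, adjusted p = 2.098e-08). In NMuMG, Acly was at 363 to 374 CPM in control, 385 to 399 in lean and 352 to 370 in obese secretome, and rose by 0.13 in lean against obese (adjusted p = 0.001907). The rise was larger in E0771, with a difference of 0.27 ± 0.0503 (SE, adjusted p = 3.406e-05).

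Acss2 (ENSMUSG00000027605) had few reads per length in both lines. In NMuMG it stood at 4.295, 5.459 and 5.046 CPM in control, 6.194, 6.08 and 7.109 in lean and 4.482, 4.842 and 4.024 in obese secretome, with every lean library above the rest. For lean against obese the value was 0.54 ± 0.128 (SE, adjusted p = 0.001023). In E0771, Acss2 ranged from 7.79 to 11.0 CPM over all media, with a lean against obese value of -0.02 and a 95% interval from -0.25 to 0.22. The lines differed by -0.54 (adjusted p = 0.0141), a call that was lost without NMuMG obese replicate 3 (adjusted p = 0.05631).

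The carboxylases moved apart in E0771. Acacb (ENSMUSG00000042010) stood at 0.7315, 1.161 and 0.3941 CPM in control, 2.535, 2.57 and 3.669 in lean and 1.102, 0.7865 and 1.274 in obese secretome, which is 9 to 115 reads per library. Every lean library was above all others. Lean differed from obese by 1.47 ± 0.267 (SE, adjusted p = 5.906e-05). In NMuMG, Acacb lay between 0.371 and 0.828 CPM in every medium, with a value of -0.14 and an interval from -0.89 to 0.60. The difference between the lines was 1.63 ± 0.458 (SE, adjusted p = 0.004415).

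Acaca (ENSMUSG00000020532), the cytosolic carboxylase, was far more abundant per length. In E0771 it stood at 178.1, 181.1 and 171.8 CPM in control, 153.8, 149 and 149.5 in lean and 149.6, 166.1 and 140 in obese secretome. Both secretomes lay below control and overlapped each other. Lean against obese gave -0.01 (interval -0.11 to 0.09), lean against control -0.23 (adjusted p = 0.0002641) and obese against control -0.22 (adjusted p = 0.01382). The obese call was lost without replicate 1 or 2 of control or replicate 1 or 3 of obese secretome, with adjusted p between 0.06444 and 0.1447. In NMuMG, Acaca stood at 129 to 131 CPM in control, 102 to 108 in lean and 121 to 134 in obese secretome, and lean against obese gave -0.26 (adjusted p = 1.853e-06). The mean ratio of Acaca to Acacb per kilobase in E0771 was 157 in control (88.0 to 245.9), 30.0 in lean (22.99 to 34.23) and 85.9 in obese secretome (61.99 to 119.1). The lean libraries lay below the others, and control and obese overlapped. Acacb in obese against control was not called in E0771 (0.45, adjusted p = 0.5657). In NMuMG the mean ratio was 117, 111 and 118, and the 3 media overlapped.

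Fasn (ENSMUSG00000025153) was lower in lean than in obese secretome in NMuMG but not in E0771. In NMuMG it stood at 672, 699.9 and 679.5 CPM in control, 563, 532.8 and 467.3 in lean and 672.4, 725.3 and 654 in obese secretome. All lean libraries lay below all others, and the obese libraries were spread around the control ones. The change in lean against obese secretome was -0.39 ± 0.0668 (SE, adjusted p = 0.001842). In E0771 it stood at 877.6, 905.7 and 802.2 CPM in control, 678.9, 709.6 and 787 in lean and 671.8, 756.5 and 652 in obese secretome. Both secretomes lay below every control library there and overlapped each other. Compared with obese secretome, lean gave 0.06 (interval -0.10 to 0.23), and the lines differed by 0.47 ± 0.112 (SE, adjusted p = 0.004564). Lean against control in E0771 gave -0.25 (adjusted p = 0.0144), a call lost without control replicate 1 (adjusted p = 0.06161) or lean replicate 2 (0.05318). Obese differed from control by -0.31 and missed the threshold (adjusted p = 0.05956), although it passed without control replicate 3, lean replicate 1, lean replicate 3 or obese replicate 2 (adjusted p 0.002494 to 0.04154), with the replicate block (0.04034), with DESeq2 (4.546e-05) and with no filter on low counts (9.957e-12).

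Elovl6 (ENSMUSG00000041220) fell with lean secretome in both mouse lines. In NMuMG it stood at 75.83, 71.85 and 75.55 CPM in control, 54.5, 57.17 and 49.64 in lean and 68.58, 72.67 and 74.25 in obese secretome. In E0771 it stood at 138.3, 142.9 and 143.6 CPM in control, 118.1, 108.6 and 105.6 in lean and 124.7, 138.5 and 118.9 in obese secretome. In both lines the lean libraries lay below all others, by a narrow margin in E0771. For lean against obese the value was -0.42 (adjusted p = 1.893e-08) in NMuMG and -0.20 (adjusted p = 0.00222) in E0771. The fall was larger in NMuMG, with a difference of 0.23 (adjusted p = 0.01255). That call was lost without E0771 lean replicate 1 (adjusted p = 0.05003), E0771 obese replicate 3 (0.05309) or NMuMG lean replicate 3 (0.1268), and its value without the last was 0.15.

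The desaturases fell in both mouse lines, and further in E0771. Scd1 (ENSMUSG00000037071) stood in E0771 at 262.4, 284.2 and 283.6 CPM in control, 143.6, 133 and 121 in lean and 213.9, 250.3 and 191.1 in obese secretome. In NMuMG it stood at 59.52, 61.77 and 57.53 CPM in control, 43.08, 39.08 and 39.47 in lean and 47.19, 50.37 and 45.36 in obese secretome. The 3 media did not overlap in either line, with control highest and lean lowest. Lean differed from obese by -0.72 ± 0.107 (SE, adjusted p = 0.0008269) in E0771 and -0.23 ± 0.0527 (SE, adjusted p = 0.0006945) in NMuMG, a difference of -0.47 (adjusted p = 0.01095). Obese against control was called in NMuMG (-0.32, adjusted p = 5.657e-05). In E0771 it gave -0.34 (adjusted p = 0.1786) and passed without obese replicate 2 (-0.44, adjusted p = 0.001471). The obese against control effects of the lines differed by -0.01, with an interval from -0.28 to 0.26.

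Scd2 (ENSMUSG00000025203) was the most abundant member per length in both lines. It stood in E0771 at 1186, 1250 and 1174 CPM in control, 630.3, 621.7 and 581.9 in lean and 1012, 1099 and 849.3 in obese secretome. In NMuMG it stood at 1690, 1656 and 1644 CPM in control, 1332, 1321 and 1346 in lean and 1520, 1541 and 1397 in obese secretome. As for Scd1, the 3 media did not overlap in either line. Lean against obese gave -0.69 ± 0.0884 (SE, adjusted p = 0.0002847) in E0771 and -0.16 ± 0.0318 (SE, adjusted p = 0.0001764) in NMuMG, a difference of -0.52 (adjusted p = 0.000757). Obese against control gave -0.16 in NMuMG (adjusted p = 0.001145) and -0.29 in E0771 (adjusted p = 0.1736), where Scd2 passed without obese replicate 2 (adjusted p = 0.003612), with the replicate block (0.001867) and with no filter on low counts (0.01988). The Scd genes are close copies of each other, and how reads that match more than one of them were counted was not given in the sources used here.

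In NMuMG, 2 of the 9 members tested were called higher (Acly and Acss2) and 5 lower (Acaca, Fasn, Elovl6, Scd1 and Scd2) in lean against obese secretome, beside 17.6% and 17.4% of 15014 genes. Libraries did not overlap in 8 members, beside 45.2% of all genes. The member median was -0.16 and that of all genes 0.00. Lean against control gave the same counts, 2 higher and 5 lower, beside 19.1% of all genes in each direction, and 7 members did not overlap, beside 47.8%. The higher calls there did not hold for every set of libraries: Acly (0.08, adjusted p = 0.03623) was lost without control replicate 1, control replicate 3, lean replicate 1 or lean replicate 3 (adjusted p 0.06692 to 0.1431) and with no filter on low counts (0.0692), and Acss2 (0.39, adjusted p = 0.01102) without control replicate 1 (0.09567) or lean replicate 3 (0.07075). Obese against control gave 0 higher and 2 lower, Scd1 and Scd2, beside 2.34% and 2.66%, and these 2 were also the members that did not overlap, beside 21.2%. At an unadjusted p under 0.05, and by DESeq2, the counts were again 0 and 2. The summed level of the members was 3145 CPM ± 31.2 (SD, n = 3) in control, 2610 ± 52.9 in lean and 2931 ± 121 in obese secretome. Scd2 and Fasn weighed most in this sum, with means of 1663 and 683.8 CPM in control.

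**Figure D2:**
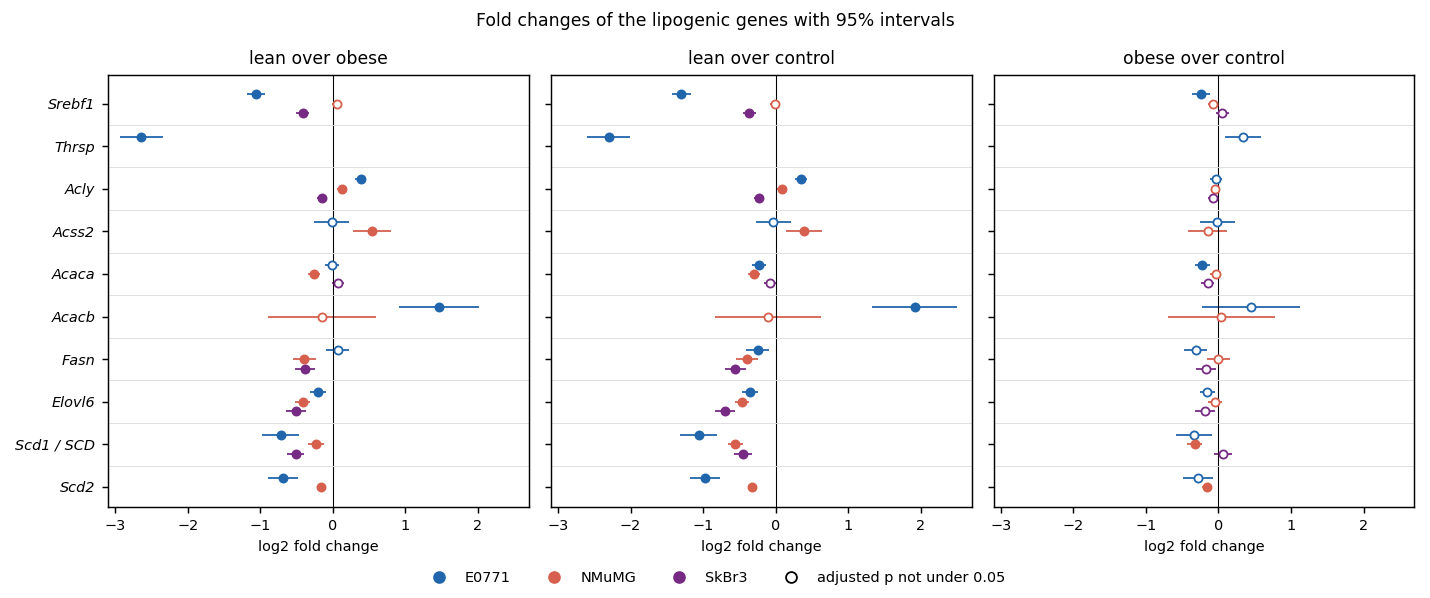
Log2 fold changes with 95% intervals of each member in E0771, NMuMG and SkBr3 for lean over obese, lean over control and obese over control; filled points have an adjusted p under 0.05. Srebf1 in lean over obese lies at -1.06 in E0771, 0.06 in NMuMG and -0.41 in SkBr3, and Thrsp has a point for E0771 only.

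Whether the 2 mouse lines responded differently was tested by an interaction term over the 18 mouse libraries together. For lean against obese, all 9 members tested in both lines were called, beside 34.2% of 16529 genes. This share and those of the other interaction comparisons cover all genes of the joint fit, including genes not tested in both lines. The E0771 value was the lower for Srebf1, Acss2, Scd1 and Scd2 and the higher for Acly, Acaca, Acacb, Fasn and Elovl6. For lean against control 5 of 9 were called, beside 34.5%: Srebf1 (-1.26, adjusted p = 7.645e-16), Scd1 (-0.48, adjusted p = 0.008604), Scd2 (-0.63, adjusted p = 0.0001362), Acly (0.29, adjusted p = 1.109e-05) and Acacb (2.04, adjusted p = 0.0004651). The difference for Fasn was then 0.17, with an interval from -0.07 to 0.41. For obese against control none of the 9 was called with edgeR, beside 1.69% of all genes, with DESeq2 calling 0 and an unadjusted p under 0.05 in 3, all lower, and the value for Srebf1 was -0.16 (adjusted p = 0.2762). Without E0771 obese replicate 2, Srebf1 (adjusted p = 0.01257) and Acaca (adjusted p = 0.0278) were called in that comparison.

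In control medium the 2 mouse lines already differed. The joint fit scales the lines to each other. There 7 of 10 members were called higher in E0771 and 2 lower, beside 37.1% and 43.4% of all genes. The 7 include Thrsp, which had no reads in NMuMG control libraries. In CPM scaled within each line and not between lines, libraries did not overlap in 9 members, beside 82.8% of all genes. Scd1 was higher in E0771 by 2.09 (adjusted p = 7.686e-12), Srebf1 by 0.89 (adjusted p = 2.233e-18), Acss2 by 0.81 (adjusted p = 1.728e-07) and Elovl6 by 0.80 (adjusted p = 5.41e-17). Acly was lower in E0771 by -1.37 (adjusted p = 2.007e-31) and Scd2 by -0.59 (adjusted p = 1.65e-06). Fasn was higher by 0.21 (adjusted p = 0.02488), which was lost without control replicate 1 or 2 of E0771 or control replicate 1 or 3 of NMuMG (adjusted p 0.06122 to 0.08803).

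Levels of different genes were compared only per kilobase of exon. In E0771 control libraries Scd2 led at 220 CPM per kilobase ± 7.46 (SD, n = 3), followed by Fasn at 78.7 ± 4.89. Srebf1 at 57.1 ± 0.447 and Scd1 at 56.6 ± 2.54 did not differ beyond their spread. Below them came Acly at 29.4, Elovl6 at 22.0, Thrsp at 17.6, Acaca at 10.4, Acss2 at 0.923 and Acacb at 0.0791. In NMuMG the order was Scd2 at 304 ± 4.36, Acly at 70.1 ± 1.18, Fasn at 62.5 ± 1.32 and Srebf1 at 28.2 ± 0.945, then Scd1 at 12.2 ± 0.433 and Elovl6 at 11.6 ± 0.346, which did not differ beyond their spread. The ratio of Scd2 to Scd1 per kilobase was 3.90 ± 0.174 in E0771 control libraries and 25.0 ± 0.870 in NMuMG. With lean secretome it was 4.14 in E0771 and 29.5 in NMuMG, so the desaturases kept their order in each line.

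**Figure D3:**
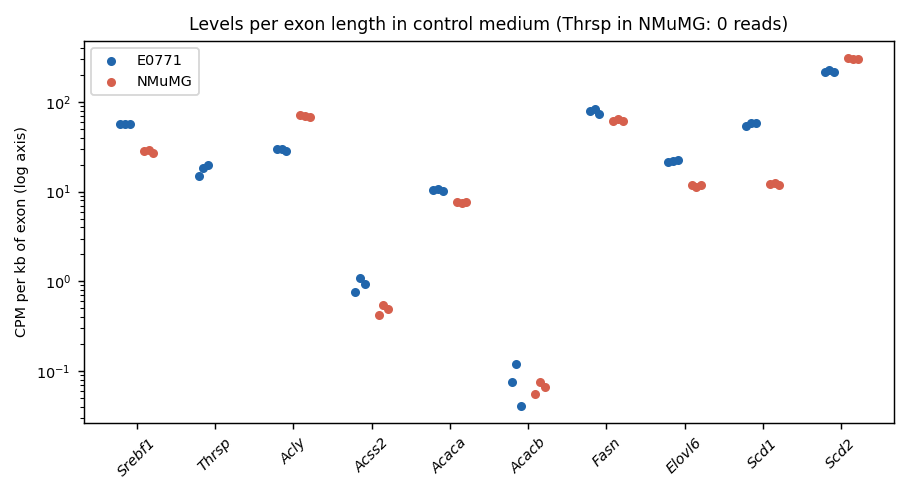
Level per kilobase of exon of each mouse member in the control libraries of E0771 and NMuMG, in CPM per kilobase on a log axis, with 1 point per library. Scd2 is highest in both lines (means of 220 and 304 CPM per kilobase), and Acacb is the lowest member with reads in NMuMG control libraries.

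SkBr3, the human line, showed lower levels of 5 of its 6 members with lean secretome and no member higher, whether by adjusted or unadjusted p or by DESeq2. Against obese secretome 0 members were called higher and 5 lower, beside 21.1% and 23.1% of 14874 genes, and the same 5 did not overlap, beside 34.8% of all genes. The member median was -0.40 and that of all genes 0.00. Against control the counts were again 0 and 5, beside 23.7% and 25.1%, with 5 members not overlapping, beside 41.6%. Obese against control gave 0 of 6 in each direction with edgeR, beside 0.605% and 0.551%, and 2 members (ACACA and ELOVL6) did not overlap, beside 11% of all genes. At an unadjusted p under 0.05 it held 4 lower, and DESeq2 called 1 lower (ACACA). The summed level of the 6 genes was 9560 CPM ± 450 (SD, n = 4) in control, 6797 ± 302 in lean and 8836 ± 680 in obese secretome. FASN weighed most in this sum, with a mean of 6583 CPM in control.

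SREBF1 (ENSG00000072310) stood at 542.9, 549.7, 558.4 and 540.4 CPM in control, 417, 392.4, 470.8 and 426.7 in lean and 545.5, 606.4, 564.5 and 559 in obese secretome. Every lean library lay below every other. The change in lean against obese secretome was -0.41 ± 0.0445 (SE, adjusted p = 7.181e-07), and obese against control 0.05 with an interval from -0.04 to 0.15. ACLY (ENSG00000131473) stood at 850 to 875 CPM in control, 715 to 755 in lean and 799 to 852 in obese secretome. It fell by 0.15 in lean against obese (adjusted p = 0.000636), whereas Acly rose in both mouse lines. ACACA (ENSG00000278540) ranged from 96.5 to 113 CPM over all media and gave 0.07 in lean against obese, with an interval from -0.01 to 0.16 (adjusted p = 0.16). It passed without lean replicate 3 (0.10, adjusted p = 0.03979).

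FASN (ENSG00000169710) was the most counted of the 6, at 6582, 6310, 6338 and 7103 CPM in control, 4318, 4337, 4900 and 4381 in lean and 5509, 6702, 5611 and 5612 in obese secretome. The lean libraries lay below all others, with replicate 3 above the remaining lean ones, and obese replicate 2 stood apart from the remaining obese ones. Compared with obese secretome, lean gave -0.39 ± 0.0644 (SE, adjusted p = 0.000352) and lean against control -0.55 (adjusted p = 1.223e-05). The obese against control value was -0.17 (adjusted p = 0.2504), and -0.24 without obese replicate 2 (adjusted p = 0.006135). FASN also passed there with no filter on low counts (0.004076).

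ELOVL6 (ENSG00000170522) stood at 174.1, 168.1, 175.5 and 172.5 CPM in control, 107.2, 97.94, 122.7 and 98.81 in lean and 140.7, 166.4, 157 and 143.7 in obese secretome. The 3 media did not overlap, with control highest and lean lowest. For lean against obese the value was -0.51 ± 0.065 (SE, adjusted p = 1.711e-05) and lean against control -0.70 (adjusted p = 4.822e-07). SCD (ENSG00000099194) stood at 1299, 1155, 1306 and 1377 CPM in control, 1028, 867.7, 895.7 and 966.3 in lean and 1330, 1425, 1294 and 1312 in obese secretome. Lean libraries lay below all others, and obese and control libraries overlapped. Lean differed from obese by -0.51 ± 0.0562 (SE, adjusted p = 4.159e-06). Obese against control gave 0.06, with an interval from -0.06 to 0.18 (adjusted p = 0.6933). ACACA and ELOVL6 in obese against control (adjusted p = 0.07201 and 0.1949) both passed without lean replicate 3 (0.01362 and 0.0126) and with the 2 groups fitted alone (0.007189 and 0.007558). ACACA also passed with DESeq2 (adjusted p = 0.02786) and ELOVL6 with no filter on low counts (0.002899). Human and mouse libraries were in separate tables and were not tested against each other.

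**Figure D4:**
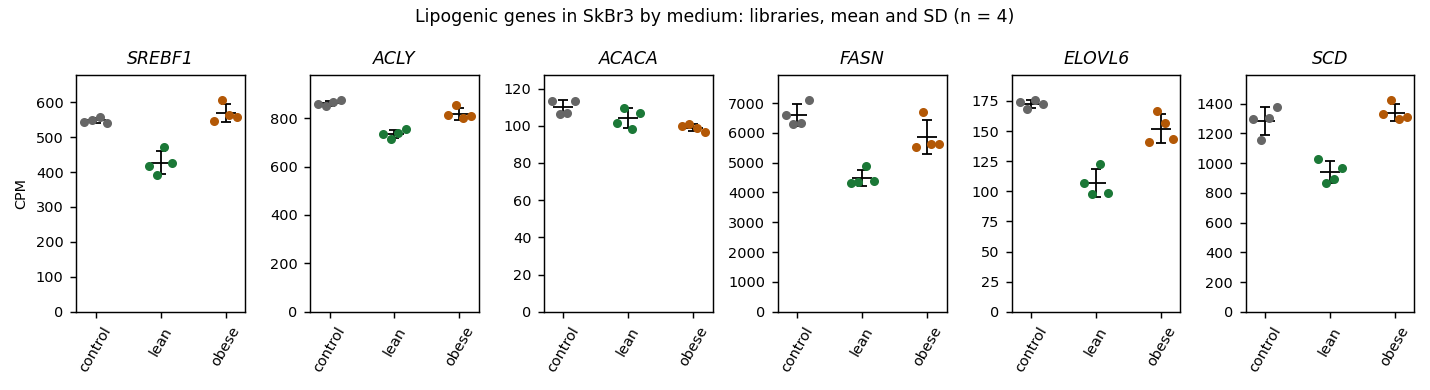
Expression of the 6 human members in each SkBr3 library, in CPM on axes from 0, by medium, with points for the 4 libraries per medium and bars for the mean and SD. Lean libraries lie below obese ones for SREBF1, ACLY, FASN, ELOVL6 and SCD, and FASN spans 4318 to 7103 CPM.

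The regulators of SREBP and of lipogenesis were read from a fixed list in the mouse lines. Counts of this and the following lists stand beside the shares of all genes given above for lean against obese secretome. These were 25.8% higher and 26.9% lower in E0771 and 17.6% higher and 17.4% lower in NMuMG. For the interaction the share was 34.2% of all genes of the joint fit, including genes not tested in both lines. In E0771, lean against obese gave 0 higher and 9 lower of 13 tested, with a median of -0.28. The falls included Insig1 (-0.74, adjusted p = 0.006274), which holds SREBP in the endoplasmic reticulum and is itself an SREBP target, Mbtps1 (-0.71, adjusted p = 6.078e-12), the site-1 protease that cuts SREBP, Nr1h3 (-0.60, adjusted p = 4.424e-09), which encodes LXR alpha, and Srebf2 (-0.28, adjusted p = 2.579e-05). Scap, which escorts SREBP to the Golgi, was at -0.04 (adjusted p = 0.4487). In NMuMG 4 of 15 were higher and 3 lower, near the shares of all genes, with a median of -0.03. Nr1h3 rose there by 0.47 (adjusted p = 1.609e-05) and Insig2 by 0.29 (adjusted p = 0.0001582), Mbtps1 fell by 0.20 (adjusted p = 2.2e-05), and Insig1 was at -0.09 (adjusted p = 0.1743). Of the 13 regulators tested in both lines, 7 had a lower lean against obese value in E0771 by the interaction test and none a higher one, and for Nr1h3 the difference was -1.06 (adjusted p = 3.255e-11).

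Regulators of acetyl-CoA carboxylase are mostly subunits of the kinase AMPK. Within each line they were called about as often as all genes (25.8% higher and 26.9% lower in E0771, 17.6% and 17.4% in NMuMG). In E0771 2 of 8 were higher, Prkab2 (0.61, adjusted p = 1.638e-06) and Prkaa1 (0.26, adjusted p = 9.415e-05), and 3 lower. The lower ones were Mlycd (-1.21, adjusted p = 1.654e-08), the decarboxylase that removes malonyl-CoA, Trib3 (-0.62, adjusted p = 6.412e-10) and Prkag1 (-0.46, adjusted p = 3.199e-08). In NMuMG 1 of 9 was higher, Trib3 (0.56, adjusted p = 5.68e-05), and 2 lower, Prkab1 (-0.24, adjusted p = 3.103e-05) and Prkag2 (-0.20, adjusted p = 0.01568). The list medians were -0.03 in E0771 and -0.08 in NMuMG. By the interaction test, the E0771 value was higher in 3 and lower in 3 of 8 genes, beside 34.2% of all genes called.

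Other enzymes of fatty acid synthesis and elongation had counts of calls not far from the shares of all genes (25.8% higher and 26.9% lower in E0771, 17.6% and 17.4% in NMuMG). In E0771 7 of 20 tested were higher and 4 lower, with Elovl3 (1.55, adjusted p = 3.33e-07), Hacd1 (0.76, adjusted p = 2.651e-08), Me1 (0.70, adjusted p = 3.221e-08) and Hacd3 (0.70, adjusted p = 1.215e-11) at the top. Me1, malic enzyme, makes NADPH for the synthase. In NMuMG 5 of 20 were higher and 2 lower, with Slc25a1 (0.49, adjusted p = 6.188e-12), the carrier that brings citrate to the cytosol, and Me1 (0.38, adjusted p = 1.006e-09) at the top. The medians were 0.06 and 0.02.

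Glycerolipid genes that SREBP-1 is known to drive differed between the lines, beside shares of all genes of 25.8% higher and 26.9% lower in E0771 and 17.6% and 17.4% in NMuMG. In E0771 1 of 9 was higher, Acsl1 (0.76, adjusted p = 4.79e-10), and 7 lower, among them the phosphatidate phosphatase Lpin1 (-1.18, adjusted p = 6.863e-11) and the acyl-CoA synthetase Acsl3 (-0.58, adjusted p = 2.829e-08), with a median of -0.30. In NMuMG 4 of 10 were higher, among them Dgat2 (0.45, adjusted p = 2.457e-05), Agpat2 (0.34, adjusted p = 5.912e-05) and Lpin1 (0.33, adjusted p = 0.002071), and 2 lower, with a median of 0.06. The effect differed between the lines in all 9 genes tested in both, with a lower E0771 value in 8 of them. Beside them, 34.2% of all genes of the joint fit were called. For Lpin1 the difference was -1.49 (adjusted p = 1.88e-12). The interaction test also called other lists more often than all genes. E0771 values were higher in 6 and lower in 4 of 18 other fatty acid synthesis enzymes. They were higher in 5 and lower in 7 of 20 cholesterol synthesis genes, and in 3 and 7 of 11 oxidation and PPAR genes.

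Cholesterol synthesis genes, the targets of SREBP-2, gave 6 higher and 11 lower of 20 in E0771 (median -0.22) and 5 higher and 4 lower of 20 in NMuMG (median 0.00). All genes gave 25.8% higher and 26.9% lower in E0771 and 17.6% and 17.4% in NMuMG, so the share of lower calls in E0771 was above the background and the others were near it. Mvk (-0.76, adjusted p = 1.097e-09) and Fdps (-0.45, adjusted p = 3.483e-05) fell in E0771, and Hsd17b7 rose there (1.62, adjusted p = 1.91e-11) and in NMuMG (0.31, adjusted p = 7.669e-05). Genes of fatty acid oxidation and targets of the fatty acid receptors PPAR gave 3 higher and 4 lower of 11 in E0771 (median 0.08) and 12 higher and 0 lower of 13 in NMuMG (median 0.31), beside the same shares of all genes. The lipid droplet coat gene Plin2 rose in both, by 1.02 in E0771 (adjusted p = 2.361e-09) and 0.74 in NMuMG (adjusted p = 9.663e-17), as did Angptl4, by 2.46 (adjusted p = 6.931e-06) and 1.33 (adjusted p = 5.369e-16). Cpt1a, the entry enzyme of mitochondrial oxidation that malonyl-CoA inhibits, rose in NMuMG by 0.67 (adjusted p = 2.388e-16) and was at 0.12 in E0771 (adjusted p = 0.2514).

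**Figure D5:**
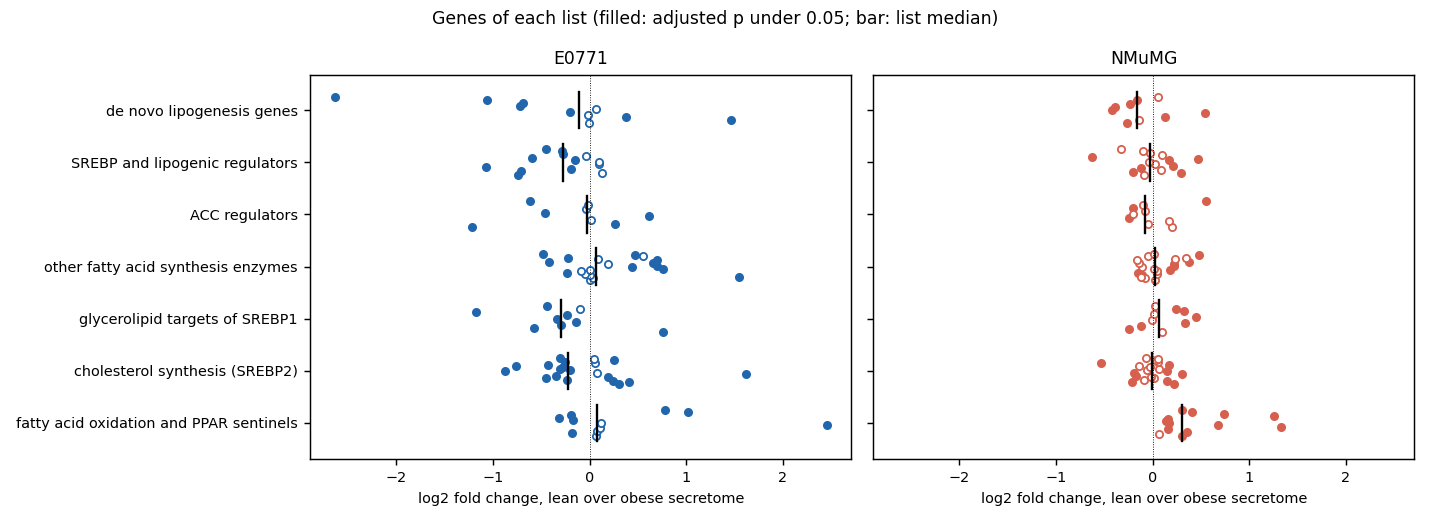
Log2 fold changes of lean over obese secretome for each tested gene of the members and the 6 context lists, in E0771 (left) and NMuMG (right) on the same axis, with the list median as a bar. The regulator list lies mostly below 0 in E0771 (median -0.28), and the oxidation list mostly above 0 in NMuMG (median 0.31).

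Markers moved with the E0771 result. In lean against obese secretome, 3 of 3 tested fibroblast markers were called lower, beside 26.9% of all genes. Of the epithelial markers 1 of 2 tested was called lower, and of the endothelial ones 1 of 1, with 0 higher in these 3 lists. Fibroblast markers summed to 874.3 to 982 CPM in E0771 control libraries, 330.3 to 370.1 in lean and 642.8 to 868.2 in obese secretome, with Col1a1 at 686.6, 203.5 and 523.4 CPM on average, and 4 of the 6 markers were above 3 counts in control and lean libraries. The lean libraries were lowest, as for Srebf1. Whether this took part in the lipogenic result was not tested. In NMuMG the same list stood far lower and had the same order, at 5.69 to 6.25 CPM in control, 3.23 to 3.42 in lean and 3.796 to 4.718 in obese secretome. Mammary epithelial markers in NMuMG moved with lean against obese secretome. Of 8 tested, 5 were called higher and 0 lower with edgeR, beside 17.6% and 17.4% of all genes. The 10 markers listed summed to 7985 to 8208 CPM in lean, 6929 to 7298 in obese and 7251 to 7695 in control libraries. The part of these markers in the lipogenic result was not tested. Leukocyte markers in E0771 summed to 4.38 to 6.25 CPM over all media.

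The genes most like Srebf1 across the 18 mouse libraries, by Pearson's r of log2 CPM centred within each line over 12433 genes, were Plekha5 (0.988), Abcb8 (0.985), Col16a1 (0.982), Ahdc1 (0.982) and Arl14ep (0.981). Among the members, Scd2 (0.938) and Scd1 (0.873) had the highest r with Srebf1, Elovl6 had 0.493, and Acly (-0.882) and Acacb (-0.851) the lowest. These values are descriptions: the libraries share 3 media, so they mostly restate the gap between the lean and the other E0771 libraries. Within NMuMG, r was 0.224 for Plekha5, 0.634 for Abcb8, 0.544 for Col16a1, 0.647 for Ahdc1 and 0.497 for Arl14ep. Among the members named, r there was 0.227 for Scd2, 0.317 for Scd1 and -0.25 for Elovl6. For Acly (0.56) and Acacb (0.338) it was positive in NMuMG. Thrsp had too few reads in NMuMG for such a ranking.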

How the data were processed

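The authors deposited raw counts per Ensembl gene in 1 human and 1 mouse table; per the submitters' processing notes, reads were handled with cutadapt 1.16, STAR 2.7.9a and featureCounts 1.6.3. Their parameters, the annotation release and the strand setting were not given in the sources used here, and the notes name GRCm39 alone, also for the human libraries. The RNA was poly(A) with a directional protocol, per the labels.

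Members, lists and tests were chosen with earlier results of these data known. Mouse symbols and exon lengths came from GENCODE M21, which named 52073 of 56980 identifiers (99.68% of counts). Human identifiers other than the 6 members were not named. Each line was fitted with its 3 media in edgeR 4.0.16 (R 4.3.3) with filterByExpr, TMM scaling and a robust quasi-likelihood F test, adjusted by Benjamini-Hochberg within each contrast. Lines were compared in 1 fit of the 18 mouse libraries. A difference between lines in the effect of a medium is reported only for genes tested in both. The comparison in control medium covers all genes of that fit, including Thrsp. All members were named. From the SREBP and acetyl-CoA carboxylase regulator lists any gene could be named, and only some were. From each other list, up to 4 called genes of largest change per contrast could be named. Log2 CPM used a prior count of 2, and intervals are 95%. A count of 3 was the detection floor. Counts of reads carry no molecular identifiers, so floors cover counting error only. Replicates differed by 1.99 to 15.4 times counting error (chi-square per degree of freedom). The pipeline was tested on simulated data. Alternatives were DESeq2 1.42.0, its size factors in edgeR, no filter, a replicate block, 2 groups only and each library left out.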

Additional observations from a re-analysis of the deposited data

Results flagged for a closer look

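The expression of FASN in SkBr3 had a library apart from its group in 2 of its 3 media. There were 18 such tests over the 6 genes and 3 media, and chance alone sets a library apart in about 1 of 20. In lean secretome replicate 3 lay above the others, and its gap was 0.892 of the group's range. In obese secretome replicate 2 lay above the others, and its gap was 0.914 of the range; both exceed Dixon's 95% critical value for 4 libraries. The lean against obese value of FASN was -0.39 with all libraries, -0.43 without lean replicate 3 and -0.32 without obese replicate 2.

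The effect of lean against obese secretome differed between E0771 and NMuMG by an interaction test for every member tested in both lines. The differences, E0771 minus NMuMG on the log2 scale, were -1.10 for Srebf1, -0.54 for Acss2, -0.52 for Scd2 and -0.47 for Scd1, and 0.23 for Elovl6, 0.27 for Acly, 0.27 for Acaca, 0.47 for Fasn and 1.63 for Acacb. For lean against control the differences that passed were -1.26 for Srebf1, -0.63 for Scd2, -0.48 for Scd1, 0.29 for Acly and 2.04 for Acacb. Insulin and glucose are stated for the NMuMG medium and not stated for that of E0771, so line and medium cannot be told apart.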

How the results depend on the processing

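All lean against obese calls of members within a line kept their direction and their side of the threshold under every alternative run. Against control medium, the lean calls of Fasn in E0771 and of Acly and Acss2 in NMuMG, and the interaction calls of Elovl6 and Acss2 in lean against obese, were lost under some alternatives, as the report gives, and SkBr3 ACACA gained a lean against obese call without lean replicate 3. Counts of calls changed mostly in obese against control. In E0771 its counts of members called (0 higher, 2 lower) were 1 higher and 4 lower with no filter, 1 higher with DESeq2 (Thrsp), 1 higher and 4 lower with the replicate block, and 1 lower with the 2 groups alone. Leaving out 1 library gave 0 to 1 higher and 0 to 6 lower, and 79 to 601 genes called against 360, or 626 with no filter. In SkBr3 it was 2 lower with no filter, 1 with DESeq2 and 2 with the 2 groups alone, and 0 to 2 with a library left out. There 172 genes were called, 539 with no filter, 387 with DESeq2, 849 with the 2 groups alone and 20 to 655 with a library left out. In NMuMG the 752 genes became 384 to 893, and Fasn, at 0.00, turned to -0.0013 with the replicate block and -0.0011 with the 2 groups alone. Members higher in lean against control in NMuMG were 1 with no filter and 0 to 2 with a library left out, and in SkBr3 lean against obese 0 to 1. The interaction of obese against control called 279 genes, 428 with no filter and 149 to 392 with a library left out, with 0 to 2 members lower. With a library left out, member medians ranged from -0.2627 to -0.1296 (NMuMG lean against obese), -0.4487 to -0.3515 (SkBr3 lean against obese), 0.4886 to 0.6256 (control medium), 0.1548 to 0.285 (interaction, lean against obese) and -0.1573 to -0.0217 (interaction, obese against control). The cause was not tested. With a library left out, values that were not called and changed sign ranged as follows. In E0771, Acss2 ranged from -0.0837 to 0.0714 in lean against obese, from -0.1543 to 0.099 in lean against control and from -0.1368 to 0.1185 in obese against control, and Acaca from -0.0677 to 0.0549 in lean against obese. In NMuMG, Acacb ranged from -0.3923 to 0.0935, from -0.2889 to 0.1335 and from -0.1661 to 0.2913 in the same 3 comparisons, Srebf1 from -0.0358 to 0.0132 in lean against control and Fasn from -0.0448 to 0.0313 in obese against control. Between the lines, Acly ranged from -7e-04 to 0.0445 and Scd1 from -0.1184 to 0.0748 in obese against control, and Acacb from -0.2581 to 0.457 in control medium. Over all alternatives, 1814 of the member values kept direction and call, 30 gained a call, 30 lost one and 31, none of them called, changed sign.

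The replicate numbers were not used as pairs: residuals of same-numbered libraries correlated from -0.0942 to 0.11 over 9 pairs in E0771, -0.0285 to 0.025 over 9 in NMuMG and -0.0452 to 0.0523 over 12 in SkBr3, and 5 of 9, 4 of 9 and 1 of 12 libraries correlated best with their own number. The block could not be fitted for the lines in control medium. Depth limits Acacb (9 to 115 reads) and Acss2 most.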

Other observations

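The order of the libraries within groups was looked at after their values were seen. Replicate 2 was the highest obese library in 7 of 10 members in E0771, 7 of 9 in NMuMG and 6 of 6 in SkBr3. Replicate 3 was the lowest in 8 of 10 members in E0771 and 7 of 9 in NMuMG. Other groups had such libraries too: control replicate 2 and lean replicate 1 were each the highest of their group in 7 of 10 members in E0771, and control replicate 2 was the lowest in 5 of 6 in SkBr3. The share over all genes was not computed. The labels do not say whether equal numbers share a secretome preparation.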
